A study of Mus musculus with 33 samples.

Results

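The angiopoietins and Tie receptors are represented here by 4 genes, the ligands Angpt1 and Angpt2 and the receptors Tek (which encodes Tie2) and Tie1. They were chosen by name, and each was found as 1 row among the 38899 genes shared by the 4 expression tables of a study of adult mouse bone marrow cells. Positions are from the GENCODE vM21 annotation of GRCm38. Tek (ENSMUSG00000006386.15) lies on the plus strand at chr4:94739289-94874976 and Tie1 (ENSMUSG00000033191.14) on the minus strand of the same chromosome at chr4:118471191-118490061. Angpt1 (ENSMUSG00000022309.9) lies on the minus strand at chr15:42424723-42676977, where an exon overlaps the predicted gene Gm17473, and reads of these 2 genes could be confused if the counting ignored strand. Angpt2 (ENSMUSG00000031465.6) lies on the minus strand at chr8:18690263-18741562, inside Mcph1 and with no exon shared with it.

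Tie2 is a receptor tyrosine kinase of endothelial cells and of some blood stem cells. Angpt1 is its activating ligand and is known for quiescence and tightness of vessels, whereas Angpt2, stored and secreted by endothelial cells, is a context-dependent ligand that often opposes Angpt1 and is known for vessel remodelling. Tie1 binds no angiopoietin strongly by itself and acts as a partner of Tie2 at the cell surface. In bone marrow, Angpt1 made by haematopoietic and stromal cells is known from work on the stem cell niche and on regeneration of marrow vessels.

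Both receptor genes were expressed together across the libraries, so the bases just before their annotated starts are shown for comparison, from the RefSeq promoter table of GRCm38.p6, in which 2 of the 4 genes, Tek and Tie1, were found. Capitals mark GGAA on either strand (TTCC on the strand shown), the core letters bound by ETS-family transcription factors. The Tek window is chr4:94739039-94739288 on the plus strand, and the Tie1 window is chr4:118490062-118490099 on the minus strand.
Tek: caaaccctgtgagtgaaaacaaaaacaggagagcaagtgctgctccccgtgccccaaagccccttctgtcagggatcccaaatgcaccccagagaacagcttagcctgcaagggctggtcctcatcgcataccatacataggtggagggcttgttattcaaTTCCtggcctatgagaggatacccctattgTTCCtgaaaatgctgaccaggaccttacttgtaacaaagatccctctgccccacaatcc
Tie1: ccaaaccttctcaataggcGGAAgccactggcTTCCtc
Each window held 2 matches of GGAA, a motif found in 93.4% of 32851 promoter windows of 250 bases and in 33.3% of windows of 38 bases. The longer ETS-type motif CGGAAG, which contains GGAA, was found in the Tie1 window, as in 1.23% of 38-base windows, and not in the Tek window. The forkhead-type motif TGTTTAC and the GATA-type motif AGATAA, searched on both strands, were found in neither. These matches describe letters and not bound sites.

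RNA was sequenced from 33 libraries in 11 groups of 3, from C57BL/6 mice aged 8 to 12 weeks. Femur and tibia of untreated wildtype mice gave all cells of the marrow (BMC), the cells negative for lineage antigens (Lin-) and LSK cells, the Lin- Sca1+ cKit+ fraction that holds blood stem and early progenitor cells. The endothelial cell (EC) groups were sorted by GFP. Bone EC (untreated), irradiated bone EC (9 Gy) and diaphysis EC (femur shaft, untreated) came from mice carrying Cdh5-mTnG, a reporter tied to the endothelial cadherin gene Cdh5. The 9Gy1D EC group, also Cdh5-mTnG and also given 9 Gy, was sorted as Tomato+/GFP+ cells. The titles of that group read 9Gy1D, in which 1D may stand for an interval after irradiation; no other label gives one for either irradiated group. Vav1 control EC and Vav1 DTX EC are both labelled as treated with diphtheria toxin, and both as carrying Vav1-Cre, the toxin receptor allele R26-DTR, and Cdh5-mTnG. Only their sample titles and column names separate them. The columns read Vav1-Cre for the DTX libraries and Vav1-Cont for the controls, which may mean that the control lacks Cre. The genotype labels do not say so, and what the control lacks is not known here. Vav1-Cre acts in blood cells and can also act in some endothelial cells. Apln+ EC came from tamoxifen-treated Apln-CreERT2 R26-mTmG mice and Esm1+ EC, sorted as Tomato+/GFP+, from tamoxifen-treated Esm1-CreER R26-mTmG mice. The labels do not say whether the 3 libraries of a group come from separate animals, so p-values measure the spread between these libraries, which may be technical.

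Levels are FPKM, fragments scaled to gene length and to a divisor per library that followed median-of-ratios size factors and not the read total. They can be compared between genes. The reads behind them ranged from 1.56 M to 12.51 M per library. TruSeq Stranded Total RNA libraries were made from BMC and Lin-, and SMART-Seq v4 libraries from the remaining 9 groups, so kit and cell group cannot be told apart in comparisons across the 2 kits. Cdh5 was 14.1 to 200.3 FPKM in the 24 EC libraries and 0.0906 to 0.329 in LSK. Every Lin- and BMC library held more Cdh5 than the LSK libraries, so the gap to EC was narrower there. The summed level of 18 pan-endothelial markers was 75.0 to 137 FPKM in Lin- and 38.2 to 45.0 in BMC. The EC groups nevertheless carried blood RNA. The summed level of 16 neutrophil markers was 48860 to 49118 FPKM in bone EC and 1053 to 4644 in irradiated bone EC. Several libraries stood apart from the others of their group. Apln+ EC replicate 1 had a summed level of 18 pan-endothelial markers of 1461 FPKM, while the others had 5992 and 6656. Esm1+ EC replicate 3 had 1197, against 2300 and 2325. Vav1 DTX EC replicate 2 had 3684, against 1660 and 1848. Lin- replicate 3 had a summed erythroid marker level of 77245 FPKM, against 2193 and 2299. Esm1+ EC replicates 1 and 2 differed by little more than counting noise (chi-square per degree of freedom 1.39, against 26.98 and 28.54 for the other pairs of the group) and were kept as 2 libraries.

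**Figure D1:**
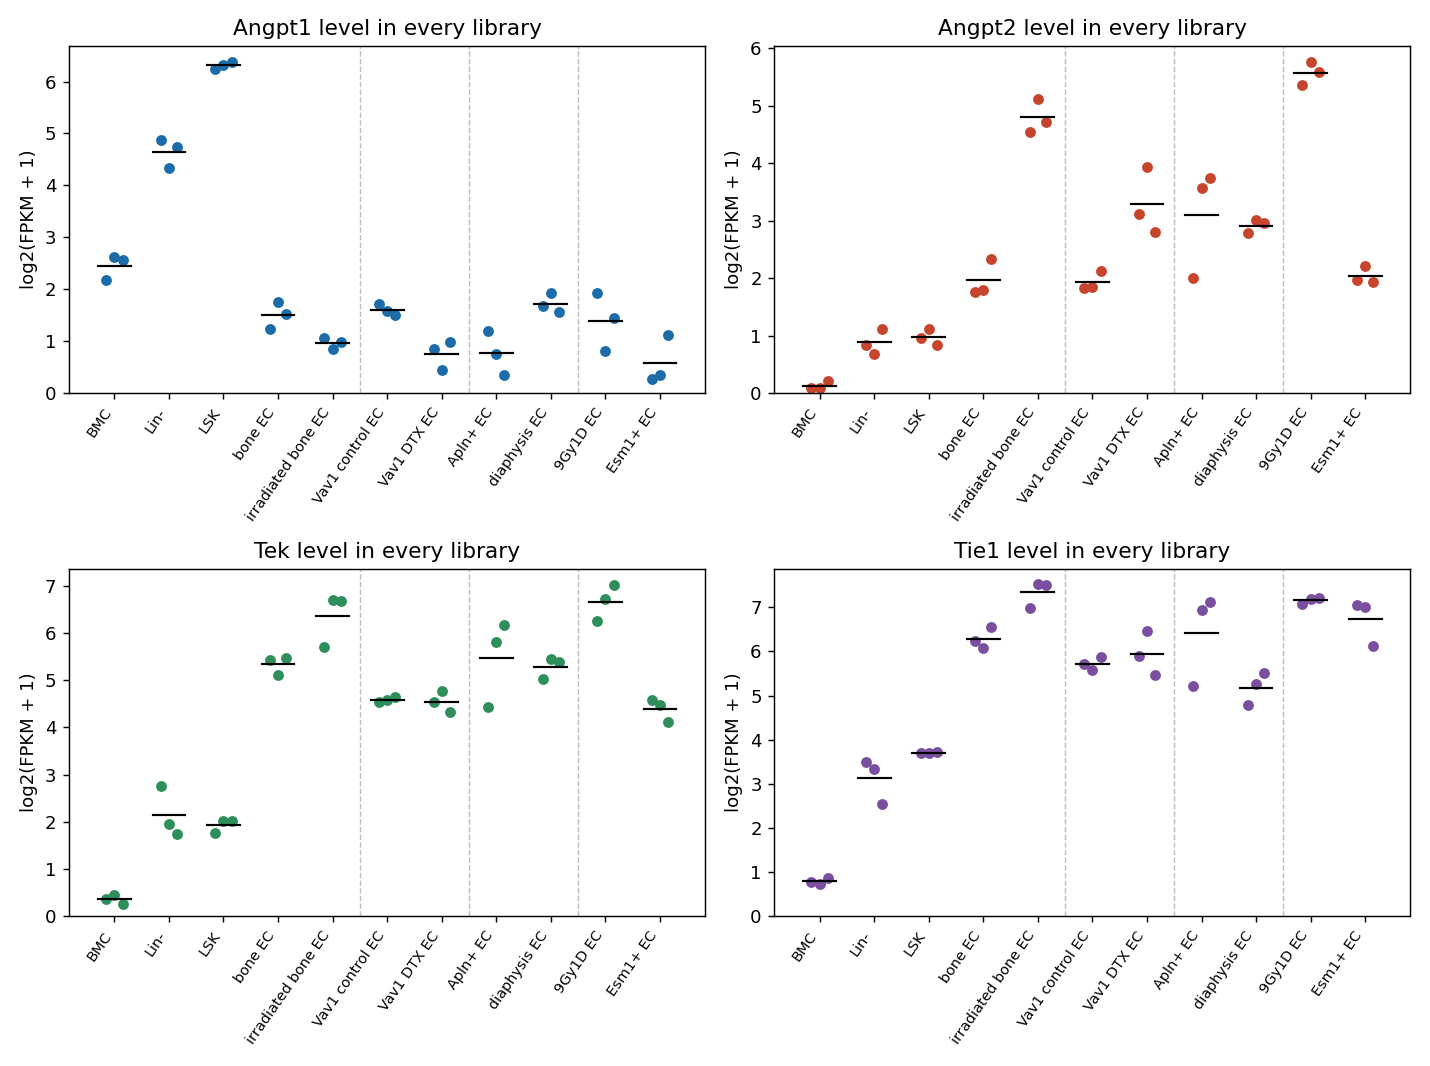
Level of each gene, as log2(FPKM + 1), in the 33 libraries of 11 groups. Points are libraries, black bars are means of the 3 libraries, and dashed lines separate the 4 tables, which were normalised separately. Mean levels as deposited were highest in LSK for Angpt1, in 9Gy1D EC for Angpt2 and Tek, and in irradiated bone EC for Tie1.

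Among the 4 unirradiated groups of the first table (BMC, Lin-, LSK and bone EC), the receptors were highest in bone EC and Angpt1 in LSK. Tek in bone EC was 42.1, 33.5 and 43.3 FPKM. In LSK it was 2.41, 3.07 and 3.06 FPKM, in Lin- 5.78, 2.86 and 2.33, and in BMC 0.293, 0.371 and 0.204, from 5 to 8 reads per library. All 3 bone EC libraries were thus above every BMC, Lin- and LSK library. Tek was 13.9-fold higher in bone EC than in LSK by the means (log2 difference of log2(FPKM + 1) 3.40 ± 0.15 SE, limma, Benjamini-Hochberg adjusted p = 1.11e-06), and differed by 3.19 ± 0.28 from Lin- and by 4.97 ± 0.14 from BMC. In bulk samples a smaller number of expressing cells and less RNA per cell cannot be told apart.

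Tie1, the co-receptor, was 74.0, 66.4 and 92.5 FPKM in bone EC. It was 12.1, 11.9 and 12.1 FPKM in LSK, 10.2, 9.16 and 4.82 in Lin- and 0.703, 0.666 and 0.822 in BMC. Bone EC again stood above every library of these 3 groups, by 6.45-fold over LSK (log2 difference 2.58 ± 0.14, limma, adjusted p = 2.98e-06), 9.62-fold over Lin- (3.16 ± 0.27) and 106-fold over BMC (5.49 ± 0.14). The 3 LSK libraries held Tek and Tie1 while Cdh5 rested on 1 to 3 reads per library there, too few for a ratio. The ratio of Tek to Cdh5 had a geometric mean of 0.490 in bone EC and 0.550 in Lin-, which overlapped, with a summed pan-endothelial level of 75.0 to 137 FPKM; the part of endothelial RNA in the Lin- values was not tested.

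Angpt1, the activating ligand, ran the opposite way. It was 74.8, 78.6 and 82.4 FPKM in LSK, 28.4, 19.1 and 25.6 in Lin-, 3.52, 5.18 and 4.88 in BMC and 1.35, 2.38 and 1.88 in bone EC, where it rested on 21 to 31 reads per library. None of these 4 groups overlapped. Its mean in LSK was 42.0-fold that in bone EC (log2 difference of bone EC against LSK -4.81 ± 0.16, limma, adjusted p = 2.82e-07), and bone EC was also lower than Lin- (-3.14 ± 0.21) and BMC (-0.95 ± 0.19, adjusted p = 0.00265). LSK exceeded Lin- (1.67 ± 0.17, limma, adjusted p = 0.000194), and Lin- exceeded BMC (2.194 ± 0.197, adjusted p = 0.000157). The step from Lin- to LSK crosses the kits. Megakaryocytes and stromal cells are known sources of Angpt1. The summed megakaryocyte level was 94.0 to 135 FPKM in LSK, 738 to 1268 in Lin- and 14.5 to 29.1 in BMC, with 9 of 9 markers higher in Lin- than in BMC. The summed mesenchymal stromal level was 13.5 to 17.7 FPKM in LSK, 79.9 to 384 in Lin- and 21.8 to 25.5 in BMC, with 7 of 9 markers tested higher and 0 lower in Lin- than in BMC. Kit, of stem and progenitor cells, was 78.7 to 104 FPKM in LSK. The part of each cell type in the Angpt1 values was not tested.

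Angpt2, the context-dependent ligand, was low in all 4 groups. It was 2.37, 2.48 and 4.03 FPKM in bone EC, 0.947, 1.17 and 0.781 in LSK, 0.794, 0.608 and 1.17 in Lin-, and it rested on 1, 1 and 3 reads in BMC. Bone EC did not overlap the blood cell groups. The difference was 0.99 ± 0.21 against LSK (limma, adjusted p = 0.00393) and 1.08 ± 0.21 against Lin- (adjusted p = 0.00281). Rescaled to TPM, the difference against LSK missed the threshold (0.73, adjusted p = 0.0552). Against BMC it was 1.83 ± 0.19, and with so few reads no fold is given.

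All 4 genes were called between bone EC and each blood cell group, 3 higher and 1 lower in bone EC every time, and none of their ranges overlapped. As background, against LSK 60.1% of all genes tested were called, 29.5% higher and 30.6% lower, and 66.5% did not overlap. Against Lin- the shares were 66.6%, 35.8%, 30.8% and 72%, and against BMC 70.4%, 35.8%, 34.6% and 74.7%, so a call by itself says little. Genes entered the tests with 1 FPKM or more in at least 3 of 6 libraries. Angpt2, Tek and Tie1 reached 1 FPKM in 3 bone EC and 0 BMC libraries. Against BMC they thus entered only through the group where they were high, which favours a call. Angpt2 reached it in 1 LSK and 1 Lin- library. Differences at least as large were found in 1.14% of the genes tested for Angpt1 against LSK, 1.66% for Tek against BMC and 1.1% for Tie1 against BMC. The corresponding shares were 34.1% and 43.0% for Angpt2 against LSK and Lin- and 40.2% for Angpt1 against BMC, and between 3.61% and 15.3% for the other 6 differences. Between LSK and Lin-, where 58.9% of genes were called, 33.4% higher, and 67.1% did not overlap, 1 of the 3 members tested passed, Angpt1. Tek differed by -0.21 (95% interval -0.87 to 0.45, adjusted p = 0.543) and Tie1 by 0.58 (-0.01 to 1.17, adjusted p = 0.0836), although the Tie1 ranges were apart. Tie1 passed without Lin- replicate 1 (adjusted p = 0.0469). Between Lin- and BMC, with 57.5% of genes called, 29.1% higher, and 66.1% not overlapping, Angpt1, Tek (1.78 ± 0.27) and Tie1 (2.34 ± 0.26) were all higher in Lin-. Here Tek and Tie1 entered through Lin- alone, with 3 libraries at 1 FPKM or more against 0 in BMC. Angpt2 was under the level filter in both of these comparisons.

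**Figure D2:**
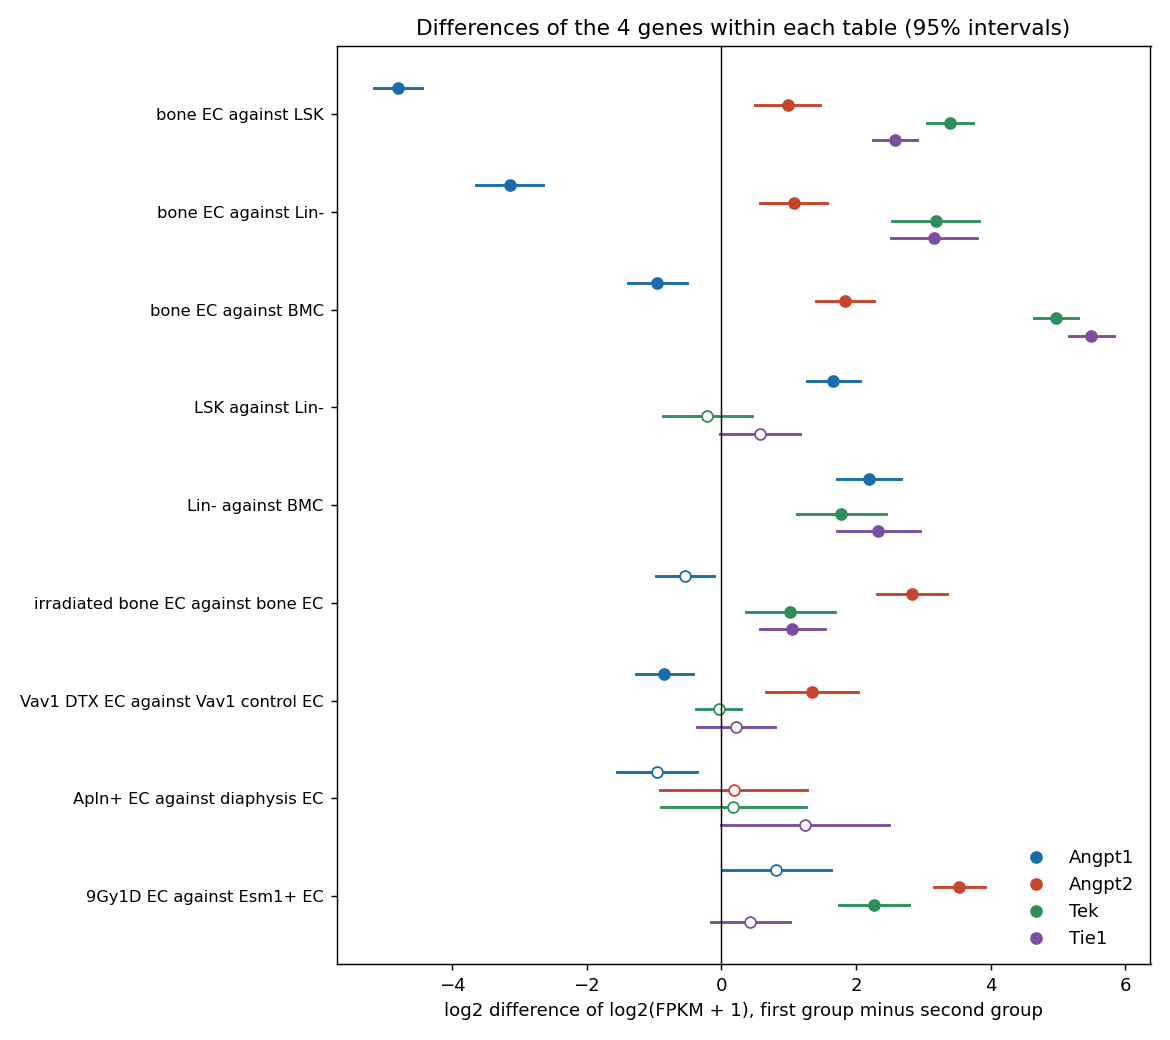
Difference of each gene in 9 comparisons, on the log2(FPKM + 1) scale, with 95% intervals from limma. Filled points passed an adjusted p of 0.05, and open points did not. Angpt1 lies to the left of 0 where bone EC is compared with blood cells, from -4.81 to -0.95, and Angpt2 to the right in irradiated bone EC (2.84) and 9Gy1D EC (3.54).

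Irradiated bone EC differed from bone EC in both receptors and most in Angpt2. Angpt2 was 22.4, 33.9 and 25.4 FPKM after 9 Gy against 2.37, 2.48 and 4.03 without. Every irradiated library exceeded every untreated one, by 9.20-fold in the means (log2 difference 2.84 ± 0.22, limma, adjusted p = 0.000257). Over 17 alternative settings the difference stayed between 1.73 and 3.29, with an adjusted p of at most 0.00236. In 1.92% of the genes tested the difference was as large. The ratio of Angpt2 to Cdh5 was 0.140 in irradiated bone EC against 0.0357 in bone EC (geometric means), without overlap (exact permutation test p = 0.1, the smallest that 3 against 3 libraries allow; adjusted p = 0.155 over 45 tests of ratios).

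Tek was 51.3, 103 and 101 FPKM in irradiated bone EC against 42.1, 33.5 and 43.3 in bone EC. The first irradiated library stood nearest to the untreated ones, and the groups did not overlap. The difference of 1.03 ± 0.28 (2.15-fold, limma, adjusted p = 0.0229) became -0.23 (adjusted p = 0.431) when each library was scaled to its pan-endothelial marker level, and it missed the threshold when irradiated replicate 2 or 3, or any of the 3 untreated replicates, was left out (adjusted p from 0.0514 to 0.0811). Tie1 was 125, 183 and 181 FPKM against 74.0, 66.4 and 92.5, again without overlap. Its difference of 1.05 ± 0.20 (2.1-fold, adjusted p = 0.00579) became -0.21 (adjusted p = 0.326) under the same scaling. Among the 18 pan-endothelial markers 16 rose and 0 fell, with a median of 1.176, which is close to the differences of both receptors. The ratio of Tie1 to Tek was 1.98 in irradiated and 1.95 in untreated bone EC.

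Angpt1 in irradiated bone EC was 1.08, 0.803 and 0.9753 FPKM, from 11 to 18 reads, against 1.35, 2.38 and 1.88. The ranges were apart and the difference of -0.54 (95% interval -0.98 to -0.11) just missed the threshold (limma, adjusted p = 0.0510). It passed with a median-of-ratios scaling (-0.58, adjusted p = 0.0410) and with the pan-endothelial scaling (-1.25, adjusted p = 0.000816). Of the 4 members 3 were thus called, all higher, beside 41.9% of genes called and 22.5% called higher, and all 4 had ranges apart, beside 54.2% of genes. All 16 neutrophil markers and all 12 erythroid markers tested were lower in irradiated bone EC, S100a8 by 4.74 on the log2 scale, and Ptprc, the leukocyte antigen CD45, fell by 1.79. The 7 megakaryocyte markers tested were lower too. The summed mesenchymal stromal level was 1144 to 1438 FPKM against 302 to 511 without radiation. Of the 9 stromal markers tested, however, 2 were higher and 0 lower, with a median difference of 0.12 against 0.06 over all genes. The part of these shifts in the members' values was not tested.

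The 9Gy1D EC group was compared with Esm1+ EC, the group in its table, from which it differs in genotype, drug and radiation at the same time, so these cannot be told apart. Angpt2 was 40.2, 53.2 and 47.3 FPKM in 9Gy1D EC and 2.90, 3.65 and 2.80 in Esm1+ EC. The groups were far apart, 15-fold by the means (3.54 ± 0.16, limma, adjusted p = 1.97e-05), and the call held in all 17 alternatives, between 2.18 and 3.97. As in the irradiated bone EC table, Angpt2 was the member with the largest difference. The comparisons share no library.

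Tek was 74.9, 104 and 128 FPKM in 9Gy1D EC and 23.0, 21.1 and 16.4 in Esm1+ EC, without overlap. It was 5.09-fold higher (2.27 ± 0.22, limma, adjusted p = 0.000382), and remained higher after pan-endothelial scaling (0.79, adjusted p = 0.0235). Tie1 differed far less, with 133, 146 and 147 FPKM against 132, 128 and 68.7. Although the ranges were just apart, its difference of 0.43 (95% interval -0.15 to 1.02) did not pass (adjusted p = 0.199), and under pan-endothelial scaling it was -1.08 (adjusted p = 0.00341). The list of 18 pan-endothelial markers had 17 higher and 0 lower, with a median of 1.49. Tie1 was therefore below, and Tek above, the median endothelial marker in this comparison.

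Angpt1 was 2.79, 0.756 and 1.72 FPKM in 9Gy1D EC and 0.201, 0.276 and 1.16 in Esm1+ EC, from 6 to 69 reads. The groups overlapped and the difference of 0.81 (0.01 to 1.62) did not pass (limma, adjusted p = 0.0939), though it did without 9Gy1D EC replicate 2 (1.10, adjusted p = 0.0459) or without Esm1+ EC replicate 3 (1.08, adjusted p = 0.0429). In total 2 of 4 members were called, both higher, beside 43.7% of genes called and 20.6% called higher, and 3 did not overlap, beside 57.3% of genes. The summed neutrophil level was 29354 to 51851 FPKM in 9Gy1D EC and 82903 to 89250 in Esm1+ EC, with 10 of 16 markers lower and 0 higher. Of 12 erythroid markers tested, 10 were lower and 0 higher. The part of this blood RNA in the members' values was not tested. The summed megakaryocyte level was 60.3 to 931 FPKM in 9Gy1D EC and 24.3 to 43.8 in Esm1+ EC. Itga2b was 84.0, 6.52 and 57.9 FPKM in 9Gy1D EC, in the same order of libraries as Angpt1. The summed mesenchymal stromal level was 555 to 1017 FPKM against 45.2 to 84.4. Megakaryocytes and stromal cells are known sources of Angpt1, and their part in its level was not tested.

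Between Vav1 DTX EC and Vav1 control EC the 2 ligands moved apart while the receptors did not pass. Angpt2 was 7.67, 14.4 and 5.95 FPKM in DTX and 2.55, 2.58 and 3.38 in control libraries. All DTX libraries were higher, by 3.29-fold in the means (1.35 ± 0.29, limma, adjusted p = 0.0151). The call was lost without control replicate 1 (adjusted p = 0.0622) or control replicate 2 (0.0602). Angpt1 was 0.797, 0.363 and 0.963 FPKM in DTX and 2.29, 1.98 and 1.83 in control libraries, also without overlap. It was 2.88-fold higher in the controls (DTX against control -0.84 ± 0.18, adjusted p = 0.0136), and this call was lost without control replicate 1 (adjusted p = 0.0585). Angpt1 reached 1 FPKM in 3 control and 0 DTX libraries. It thus passed the level filter through the controls alone, the group where it was high, which favours a call.

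Tek was 22.2, 26.2 and 19.0 FPKM in DTX and 22.1, 22.9 and 23.9 in control libraries, overlapping, with a difference of -0.04 (95% interval -0.37 to 0.29, limma, adjusted p = 0.861). Tie1 was 58.6, 87.3 and 43.0 FPKM against 51.5, 47.1 and 57.5, a difference of 0.22 (-0.37 to 0.80, adjusted p = 0.555). DTX replicate 2 was highest for Angpt2, Tek and Tie1 and lowest for Angpt1. Without it the calls on both ligands remained. The 2 calls among 4 members stand beside 26.3% of genes called, 11.3% higher and 15% lower, and the 2 members without overlap beside 46.3% of genes. Among other cells' markers, the summed erythroid level was 1263 to 2492 FPKM in DTX and 32133 to 62458 in controls. The megakaryocyte sum was 38.4 to 75.2 against 123 to 435, and Lepr was 1.27 to 3.50 against 6.54 to 10.4. The mesenchymal stromal sums overlapped, at 299 to 837 FPKM in DTX and 337 to 468 in controls, with 1 marker higher and 3 lower of 7 tested. The neutrophil sum was 37979 to 87227 against 88955 to 98422, with 2 markers higher and 5 lower of 16 tested. Whether these cells account for any of the Angpt1 in the controls was not tested.

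Apln+ EC, labelled in cells with activity of the tip cell gene Apln, and diaphysis EC differed in genotype, drug and bone region together, which cannot be told apart. None of the 4 members passed with all libraries (limma), at adjusted p-values from 0.0763 to 0.874, beside 7.49% of genes called, and 1 had ranges apart, beside 27.8% of genes. The smallest p among the members was that of Angpt1 (limma, unadjusted p = 0.00742, adjusted p = 0.0763). Tie1 was 35.9, 122 and 138 FPKM in Apln+ EC and 26.6, 37.1 and 44.4 in diaphysis EC, and Tek 20.5, 55.1 and 71.5 against 31.6, 42.7 and 41.0. Replicate 1 of Apln+ EC, the library of low pan-endothelial level, was the lowest of its group for both receptors. Angpt2 followed the same order, with 3.003, 10.8 and 12.3 FPKM against 5.89, 7.03 and 6.78.

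Angpt1 was 1.30, 0.688 and 0.267 FPKM in Apln+ EC, highest in replicate 1, against 2.189, 2.80 and 1.94 in diaphysis EC. It was the member whose groups did not overlap (-0.95, 95% interval -1.55 to -0.36). That library decided all 4 calls: without Apln+ EC replicate 1, Tie1 was higher in Apln+ EC by 1.85 (limma, adjusted p = 0.000863), Angpt2 by 0.73 (0.00568) and Tek by 0.70 (0.0220), and Angpt1 was lower by -1.17 (0.00415), with the remaining 2 Apln+ libraries assumed to vary like the others. The number of genes called then rose from 890 to 3989. The 2 remaining Apln+ libraries had pan-endothelial sums of 5992 and 6656 FPKM, against 2502 to 3770 in diaphysis EC. The fit without replicate 1 was not repeated with pan-endothelial scaling. With no library left out, that scaling took Angpt2 to -0.18 and Tek to -0.19, while Tie1 stayed at 0.87 or above in every setting. The summed mesenchymal stromal level was 98.4 to 168 FPKM in Apln+ EC and 726 to 838 in diaphysis EC, and Lepr, a marker of Angpt1-expressing stromal cells, was 1.16 to 2.44 against 18.8 to 30.8. The part of stromal RNA in the Angpt1 values was not tested.

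**Figure D3:**
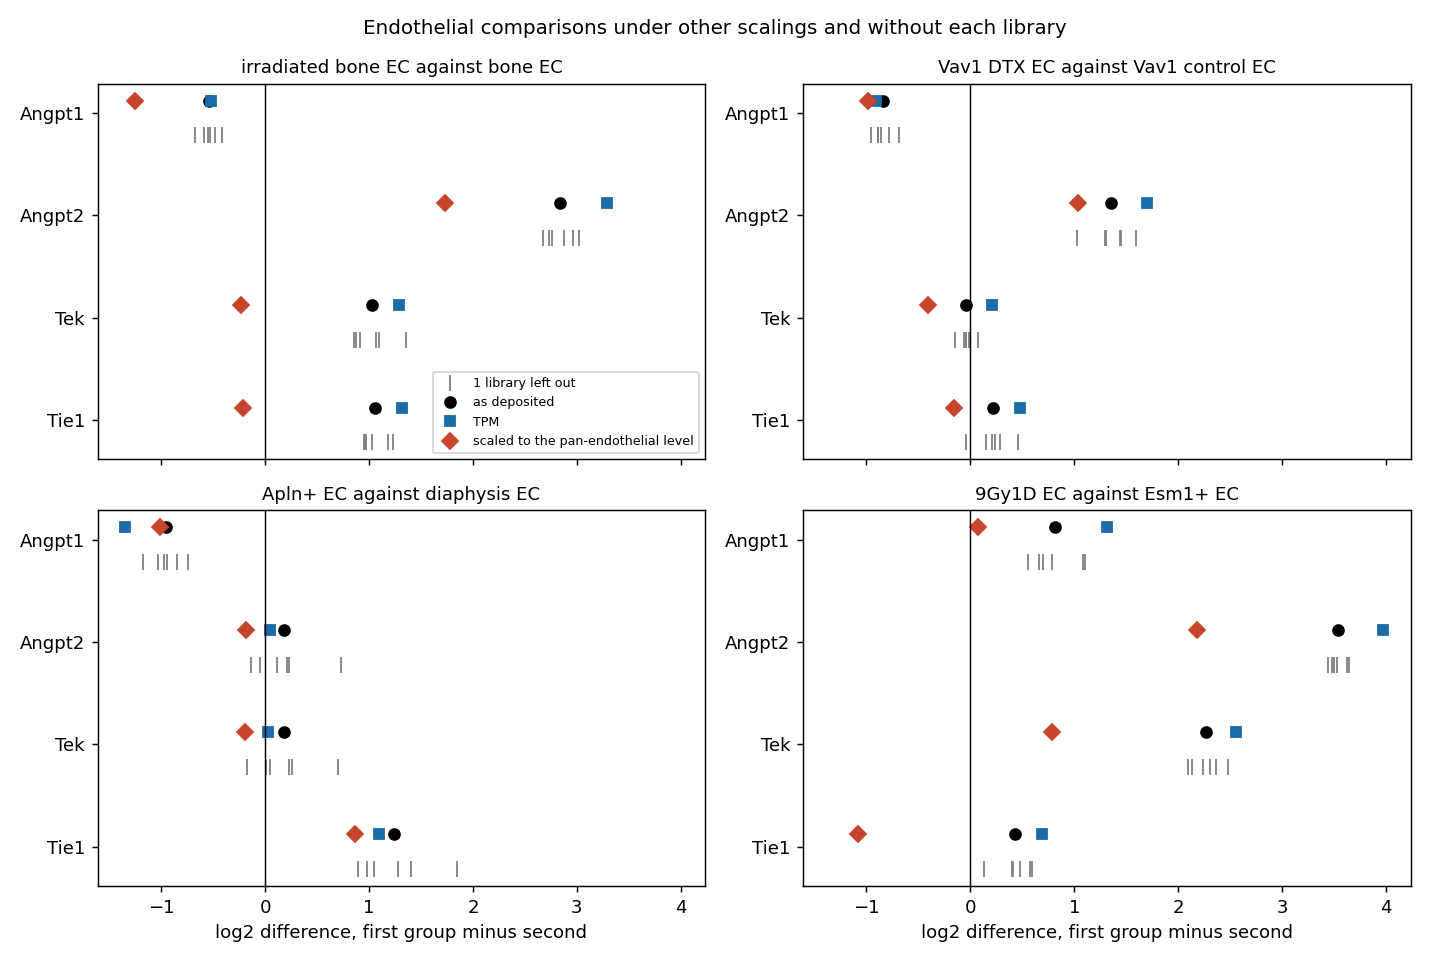
Log2 differences of the 4 genes in the 4 comparisons between EC groups, from the values as deposited (circles), as TPM (squares) and scaled to the pan-endothelial marker level (diamonds), with the values after leaving out each library as ticks. In irradiated bone EC, Angpt2 stayed at or above 1.73 in each setting shown, while Tek and Tie1 crossed 0 under the pan-endothelial scaling (-0.23 and -0.21).

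Set side by side over all 11 groups, without a test across tables, Angpt1 fell into 4 levels. These levels and the folds of means depend on the deposited scale, since the FPKM of a library summed to between 266764 (LSK) and 634649 (BMC). Rescaling each library to one total (TPM) raises every level through its unit alone, so a count of moved levels says nothing there. Median-of-ratios scaling over the 33 libraries moved 2 of the 44 group levels of the 4 genes by more than their SD. LSK (78.6 ± 3.79 FPKM, SD, n = 3) was followed by Lin- (24.4 ± 4.77) and BMC (4.53 ± 0.886), each apart from the next, and then by the 8 EC groups from 2.31 ± 0.441 in diaphysis EC to 0.547 ± 0.536 in Esm1+ EC, where each neighbour in the order overlapped the next. Angpt2 was highest in 9Gy1D EC (46.9 ± 6.51) and irradiated bone EC (27.2 ± 5.96), which were apart. Vav1 DTX EC (9.33 ± 4.44), Apln+ EC (8.72 ± 5.01) and diaphysis EC (6.57 ± 0.598) overlapped as neighbours, as did Esm1+ EC (3.12 ± 0.463), bone EC (2.96 ± 0.930) and Vav1 control EC (2.84 ± 0.467). LSK (0.968 ± 0.198), Lin- (0.857 ± 0.286) and BMC (0.0927 ± 0.0552) came last.

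Tek was highest in 9Gy1D EC (103 ± 26.8) and irradiated bone EC (85.2 ± 29.3), then Apln+ EC (49.0 ± 26.0), bone EC (39.6 ± 5.34) and diaphysis EC (38.5 ± 5.99), all overlapping as neighbours. Lower in the order were Vav1 control EC (23.0 ± 0.861), Vav1 DTX EC (22.5 ± 3.59) and Esm1+ EC (20.2 ± 3.41), apart from diaphysis EC above it and from Lin- (3.66 ± 1.86) below it, although Apln+ EC replicate 1 (20.5 FPKM) lay among these lower values. Tie1 ran from 163 ± 32.8 in irradiated bone EC and 142 ± 7.80 in 9Gy1D EC, which overlapped, through Esm1+ EC (109 ± 35.3), Apln+ EC (98.6 ± 54.9), bone EC (77.6 ± 13.4), Vav1 DTX EC (63.0 ± 22.5) and Vav1 control EC (52.1 ± 5.23) to diaphysis EC (36.0 ± 8.95), the lowest EC group. Esm1+ EC was thus the last of the EC groups for Tek and the third for Tie1.

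That discordance was seen within libraries, where the ratio of Tie1 to Tek does not depend on scaling. It was 5.73, 6.07 and 4.20 in Esm1+ EC and 1.78, 1.4 and 1.15 in 9Gy1D EC. In diaphysis EC it was 0.842, 0.867 and 1.08, and in Apln+ EC 1.75, 2.21 and 1.93. Diaphysis EC was the group in which Tie1 did not exceed Tek in every library. Both pairs of groups were apart (exact permutation p = 0.1 each, the smallest possible; adjusted p = 0.155 over 45 ratio tests). The Apln+ EC value did not set its replicate 1 apart, although that library was lowest in both genes. In LSK the ratio was 5.01, 3.88 and 3.97, above the 3 bone EC libraries at 1.76 to 2.13.

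The balance of the ligands, as the ratio of Angpt2 to Angpt1, spanned the widest range. It was 0.00949 to 0.0149 in LSK, 0.0280 to 0.0456 in Lin- and 0.0114 to 0.0320 in BMC. These values are rough, since Angpt2 rested on 8, 12 and 7 reads in LSK, 20, 13 and 20 in Lin- and 1, 1 and 3 in BMC. In bone EC the ratio was 1.04 to 2.15 and in irradiated bone EC 20.7 to 42.3. In Vav1 control EC it was 1.11 to 1.84 and in Vav1 DTX EC 6.18 to 39.6, and in 9Gy1D EC 14.426 to 70.4 against 2.40 to 14.417 in Esm1+ EC, where the highest Esm1+ library nearly met the lowest 9Gy1D library. These 3 pairs were apart (exact permutation p = 0.1 each, adjusted p = 0.155). Angpt1 rested on 6 to 136 reads in the EC libraries, and on 6, 9 and 36 in Esm1+ EC. Apln+ EC (2.31 to 46.2) overlapped diaphysis EC (2.51 to 3.49; exact permutation p = 0.4, adjusted p = 0.514), again with replicate 1 of Apln+ EC as its lowest library.

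**Figure D4:**
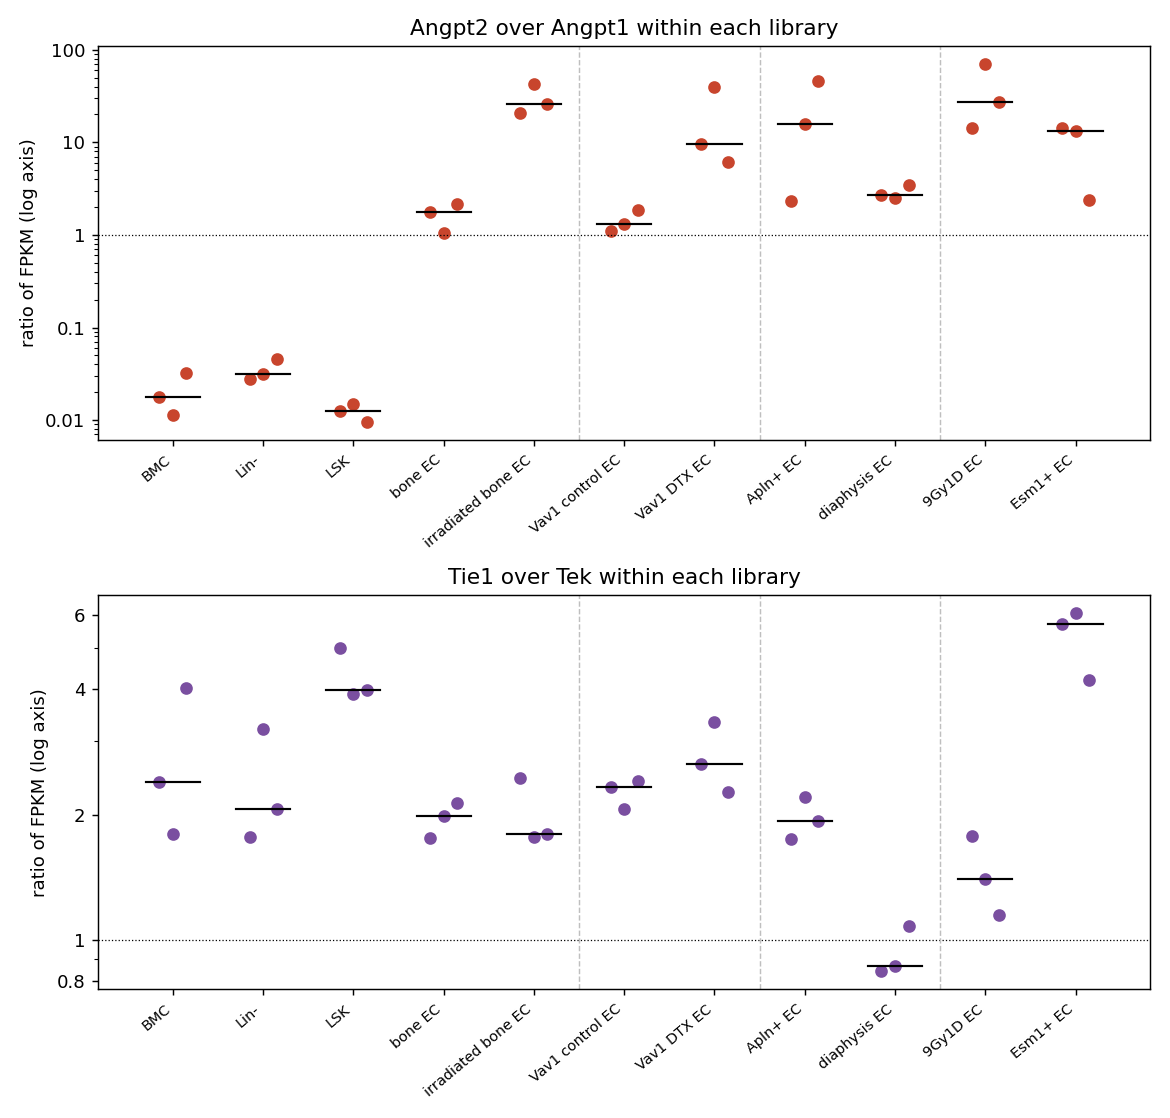
Ratio of Angpt2 to Angpt1 (top) and of Tie1 to Tek (bottom) within each library, on log axes. Points are libraries, bars are medians, dashed lines separate the tables and the dotted line marks a ratio of 1. Angpt2 to Angpt1 is at most 0.0456 in the blood cell groups and at least 1.04 in every EC library, and the median of Tie1 to Tek is highest in Esm1+ EC. In BMC, Angpt2 rests on 1, 1 and 3 reads.

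The other genes of the pathway were taken from 4 lists. Among 10 partners and modulators of the Tie receptors, 7 were tested in each EC comparison. In irradiated bone EC 4 rose and 0 fell (median 0.92, against 0.06 over all genes). Of all genes tested 41.9% were called, 22.5% higher. Under pan-endothelial scaling the counts became 0 higher and 3 lower (Adam10, Adam17 and Itgav, named after their values were seen). The 4 that rose on the deposited scale, none of them called after that scaling, were Itga5 and Itgb1, the fibronectin-binding integrin pair reported to bind angiopoietins (22.7 to 62.8 and 89.5 to 184 FPKM in the means), the membrane protease Mmp14 (50.6 to 111) and Ptprb, the endothelial phosphatase VE-PTP that dephosphorylates Tie2 (19.4 to 37.9). In 9Gy1D EC 2 were higher and 0 lower than in Esm1+ EC, beside 43.7% of all genes called and 20.6% called higher. Under pan-endothelial scaling the counts became 1 higher and 3 lower (Adam17, Itga5 and Mmp14). The 2 were Ptprb by 2.34 (limma, adjusted p = 0.00215; 0.96 after pan-endothelial scaling, adjusted p = 0.0162) and Itgb1 by 1.02 (adjusted p = 0.00124; -0.49, not called, after it). In Vav1 DTX EC none of the 7 was called, beside 26.3% of all genes. In Apln+ EC 1 was called, beside 7.49% of all genes. The count was 4 without replicate 1, and 0 without any one of the other 5 libraries or under TPM, median-of-ratios or pan-endothelial scaling.

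Among 16 genes of the relay below Tie2, 14 were tested in each EC comparison. In irradiated bone EC 6 rose and 2 fell (median 0.36), beside 41.9% of all genes called and 22.5% called higher. Under pan-endothelial scaling 0 were higher and 12 lower. The 6 became 1 without irradiated replicate 3, 2 without irradiated replicate 2 or bone EC replicate 2, and 3 without bone EC replicate 3. The kinase gene Akt1, a main effector of Tie2, rose from 58.4 to 99.2 FPKM (0.75, limma, adjusted p = 0.00702), but was lower under that scaling (-0.51). Nos3, the endothelial nitric oxide synthase, rose from 13.5 to 19.8 FPKM (0.52, adjusted p = 0.0242) and was lower under it too (-0.69). The scaffold gene Iqgap1 fell by 1.003 (adjusted p = 0.00756), and the adaptor gene Grb2 by 0.59 (adjusted p = 0.0178). Grb2 also fell by 0.49 in Vav1 DTX EC (limma, adjusted p = 0.0134), as 1 of 2 lower genes there, beside 15% of all genes called lower. Of the 2, 0 were called without any one of the 3 control libraries or after pan-endothelial scaling. In 9Gy1D EC against Esm1+ EC 3 were higher and 3 lower of 14, a share near the 43.7% of all genes called, and under pan-endothelial scaling 0 were higher and 12 lower. The 3 lower became 1 without any one of the Esm1+ EC libraries. Among the 3 was the adaptor Grb14, which differed by -1.22 (0.276 against 2.004 FPKM) and passed the level filter through Esm1+ EC alone. Nos3 was higher in Apln+ EC than in diaphysis EC by 1.97 (29.4 against 6.18 FPKM, adjusted p = 0.0485), a call lost under each scaling alternative.

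Of 13 transcription factors known to act on the Angpt and Tie genes, 9 rose and 1 fell in irradiated bone EC (median 0.95). Of all genes 41.9% were called there, 22.5% higher. After pan-endothelial scaling 1 factor was higher and 5 lower. In 9Gy1D EC 10 were higher and 0 lower (median 1.01), beside 43.7% of all genes called and 20.6% called higher. After that scaling 1 was higher and 4 lower. Hif1a and Epas1, the hypoxia-inducible factors, rose by 1.32 and 0.56 after 9 Gy, the ETS factors Ets1 and Elk3 by 1.05 and 0.996, and the flow-responsive factors Klf2 and Klf4 by 1.07 and 0.95, but after that scaling Epas1 was lower (-0.69) and none of the other 5 was called. Foxc2, a forkhead activator of Angpt2, rose by 1.03 from 1.32 to 3.71 FPKM but was not called after that scaling (0.16, adjusted p = 0.447), while Foxc1 differed by 0.65 (adjusted p = 0.074). Gata3 rose most, by 2.30 (1.39 to 10.6 FPKM, limma, adjusted p = 0.0003), and stayed higher after pan-endothelial scaling (1.35, adjusted p = 0.000672). In 9Gy1D EC, Gata3 was higher by 1.39, Klf4 by 2.24, Hif1a by 1.24, Epas1 by 1.16, Foxc1 by 1.12 and Foxc2 by 0.68, of which Klf4 alone was still called after pan-endothelial scaling (0.83, adjusted p = 0.0397). In Vav1 DTX EC 0 were higher and 1 lower of 12 tested, beside 26.3% of all genes called. In Apln+ EC 0 of 12 were called, beside 7.49% of all genes.

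Angiopoietin-like genes encode related secreted proteins that do not bind Tie2, and 6 were in the tables, of which 2 to 4 passed the level filter in each EC comparison. Angptl4, an inhibitor of lipoprotein lipase, was the most abundant, from 5.66 FPKM in Esm1+ EC to 267 in irradiated bone EC and 272 in Vav1 DTX EC, where replicate 2 alone held 594. It was higher in irradiated bone EC (1.98, limma, adjusted p = 0.00041) and in 9Gy1D EC (4.62, adjusted p = 5.2e-05), also after pan-endothelial scaling (0.71 and 3.19). It was lower in Apln+ EC than in diaphysis EC (-2.91, adjusted p = 0.045), and not called in Vav1 DTX EC (1.99, adjusted p = 0.063), though it was called there after pan-endothelial scaling (1.61, adjusted p = 0.0290). Angptl6 rose by 0.67 in irradiated bone EC (-0.29, not called, after that scaling) and fell by 0.67 in Vav1 DTX EC, at 4.27 FPKM or less. Angptl7 (4.5 against 0.0516 FPKM) and Angptl2 (4.03 against 0.920) were higher in Esm1+ EC than in 9Gy1D EC, and Angptl1 was higher in diaphysis EC than in Apln+ EC (3.55 against 0.0784). Angptl7 and Angptl1 passed the level filter only through the group where they were higher.

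Across the 33 libraries Tek and Tie1 had a Pearson correlation of log2(FPKM + 1) of 0.94, and of 0.66 over the 24 EC libraries. Angpt2 and Tek had 0.88 and 0.84, and Angpt2 and Tie1 0.81 and 0.63. Angpt1 had -0.63 and -0.52 with Tie1, -0.66 and 0.02 with Tek, and -0.56 and -0.13 with Angpt2. These are descriptions, since libraries of a group share cells, kit, table and endothelial share. The genes most like Tek among 10116 candidates were Ephb4, the venous ephrin receptor (r = 0.98), then Kdr, Adcy4, Mmrn2 and Cdr2l, and of these Kdr and Mmrn2 are pan-endothelial markers. Those most like Tie1 were Fscn1, an actin-bundling gene (r = 0.97), Ephb4, F11r, Mfge8 and Scarf1. Angpt1 was most like Meis1, a homeobox gene of stem cells (r = 0.97), Slc22a3 (0.96), Mdga1 (0.95) and Slc35d3 (0.93), followed by the microRNA gene Mir1964. Angpt2 was most like Adm, the vasoactive peptide adrenomedullin (r = 0.96), Pxdc1, Dcbld1, Bax and Phldb2 (each 0.94). Over the 15 libraries of the first table alone the Angpt2 likenesses were not the closest, with ranks from 111 to 144, whereas Meis1 and Ephb4 stayed first for Angpt1 and Tek. Adm, like Angpt2, was higher in irradiated bone EC (log2 difference 2.28) and in 9Gy1D EC (4.48). It was picked by its correlation with Angpt2 over these same libraries, so the shared direction largely followed from that choice.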

How the data were processed

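FPKM values per gene were deposited by the authors in 4 tables (38926 rows each, 38899 gene names usable in all 4, 0 columns without a sample). Per the submitters' processing notes, the build was mm10 and the tools named are DESeq2 1.18.1, HTSeq 0.6.1, TopHat2 2.1.1 and bcl2fastq 2.19.1.403. The tables were normalised separately, so tests stay within a table. The values of 38898 genes could be written as whole multiples of what 1 read is worth (tolerance 0.005 reads, or 0.01% of the reads where larger). This gave the reads per library. Of these genes 18275 were whole at the annotated gene length. For 14082, Angpt1 among them, a length was searched at which the reads came out whole. The rest had no reads, so only the annotated lengths test the recovery. The divisors behind the FPKM followed median-of-ratios size factors within each table (relative ratio 0.969 to 1.022) and not the reads (0.846 to 1.47), which raises or lowers all levels of a library together.

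Values were used as log2(FPKM + 1), so differences of low genes are understated. Genes at 1 FPKM or more in at least 3 of 6 libraries were tested with limma 3.58.1 (eBayes with trend, two-sided) in R 4.3.3 with the data.table package, version 1.17.8, with Benjamini-Hochberg adjustment over all genes tested and a threshold of 0.05. Ratios were tested by exact permutation with scipy 1.17.1. Tables and figures used pandas 2.3.3, numpy 2.4.6 and matplotlib 3.10.9. The fits were also run on simulated reads in which each gene varied independently. Shifts of a whole library, as in Apln+ EC replicate 1, were not simulated, and no outcome is given here.

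The 4 genes and the 15 gene lists were chosen with earlier results of these data known. Named beside the 4 genes are the 5 most correlated with each over 33 libraries (mean of at least 5 FPKM in a group), and from each pathway list the 3 with the highest mean over the EC groups and those called between EC groups with a log2 difference of at least 1. Alternatives were the pseudocount (0.1, 5), the filter (none, a mean of 5 FPKM), TPM, median-of-ratios and pan-endothelial scaling, no trend, all libraries of a table, a replicate block, limma voom on the recovered reads and leaving out each library.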

Additional observations from a re-analysis of the deposited data

How the results depend on the processing

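Of 541 recomputed values of the members' differences, 502 kept direction and side of the threshold, 16 gained and 9 lost a call, and 14 changed sign. The causes were not tested unless named. Pan-endothelial scaling moved the median gene by -1.05, -0.31, -0.29 and -1.27 in irradiated bone EC, Vav1 DTX EC, Apln+ EC and 9Gy1D EC. It turned Tek to -0.23 and Tie1 to -0.21 in irradiated bone EC, Tie1 to -0.16 in Vav1 DTX EC, Angpt2 to -0.18 and Tek to -0.19 in Apln+ EC, and Tie1 to -1.08 in 9Gy1D EC. It took Angpt1 in irradiated bone EC to -1.25, and counts of calls from 5463, 3065, 890 and 5133 to 9813, 1400, 405 and 8907, with 3.67% in place of 53.8% of calls higher in irradiated bone EC, 8.57% in place of 43.0% in Vav1 DTX EC and 5.18% in place of 47.2% in 9Gy1D EC.

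TPM moved the median gene by -0.86 for bone EC against LSK and by 1.10 for LSK against Lin-, where calls went from 8608 to 13810 and from 8175 to 13283 and the share of higher calls from 49.0% to 17.6% and from 56.7% to 89.6%. Higher calls also became 69.3% in place of 50.8% (bone EC against BMC, shift 0.39), 60.9% in place of 50.6% (Lin- against BMC, 0.21), 67.2% in place of 53.8% (irradiated bone EC, 0.23), 67.3% in place of 43.0% (Vav1 DTX EC, 0.21), 27.2% in place of 38.0% (Apln+ EC, -0.14) and 64.7% in place of 47.2% (9Gy1D EC, 0.24). In TPM, Angpt2 in bone EC against LSK was 0.73, and for LSK against Lin- Tek was 0.55 and Tie1 1.48. Tek in Vav1 DTX EC was 0.21 and Angpt1 in Apln+ EC -1.35. Fitting all libraries of the table together called Tie1 in LSK against Lin- (0.58) and Angpt1 in irradiated bone EC (-0.54). Angpt1 there was also called with no trend (-0.54), median-of-ratios scaling (-0.58) and voom (-0.97). A mean filter of 5 FPKM tests fewer genes and gave 5083, 5624, 6069, 4675 and 445 calls for bone EC against LSK (8608), Lin- (8822) and BMC (9287), LSK against Lin- (8175) and Apln+ EC (890).

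With 1 library left out, Tek ranged from -0.42 to 0.10 in LSK against Lin- (0.10 without Lin- replicate 1), where Tie1 ranged from 0.29 to 0.76. In irradiated bone EC, Angpt1 ranged from -0.68 to -0.41 and Tek from 0.85 to 1.35. In Vav1 DTX EC, Angpt1 ranged from -0.95 to -0.69, Angpt2 from 1.02 to 1.596, Tek from -0.15 to 0.0692 (without DTX replicate 3) and Tie1 from -0.0459 (without DTX replicate 2) to 0.46. In Apln+ EC, Angpt1 ranged from -1.17 to -0.74, Angpt2 from -0.13 (without replicate 3; -0.05 without replicate 2) to 0.73, Tek from -0.17 (without replicate 3) to 0.70 and Tie1 from 0.89 to 1.85. In 9Gy1D EC, Angpt1 ranged from 0.55 to 1.10. Counts of calls ranged from 1657 (without control replicate 1; 1680 and 1710 without replicates 2 and 3) to 4782 (without DTX replicate 2) in Vav1 DTX EC. In Apln+ EC they ranged from 293 to 584 without any one of the other 5 libraries, and reached 3989 without Apln+ EC replicate 1.

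The labels do not say that replicate numbers pair samples across groups, and same-numbered libraries correlated by -0.22 to 0.33, never above 0.1 in all 3 pairs of a comparison. A replicate block changed no member's call, and gave 4402 calls in irradiated bone EC and 2123 in Vav1 DTX EC. Averaging Esm1+ EC replicates 1 and 2, chosen after seeing the data, gave 0.68, 3.56, 2.34 and 0.58 for Angpt1, Angpt2, Tek and Tie1 and changed no call. Depth limits Angpt1 in the EC groups (6 to 136 reads) and Angpt2 in BMC (5 reads in all).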
